A study of Danio rerio with 246 samples.

Results

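The genes described here are 7 symbols of globin production and haem metabolism, measured in single cells of the whole kidney marrow of zebrafish, where their blood is formed. They were chosen by symbol: the alpha globins hbaa1 and hbaa2, the beta-type globin symbol hbe1, the haem synthesis genes alas2, urod and fech, and the biliverdin reductase gene blvrb. The symbol hbe1, that of the human epsilon globin gene, stands at 5 Ensembl identifiers of the count table, so the 7 symbols make 11 of 21876 gene rows. These 5 rows are lettered here by their summed reads, as hbe1-a (ENSDARG00000089087), hbe1-b (ENSDARG00000069734), hbe1-c (ENSDARG00000097238), hbe1-d (ENSDARG00000045143) and hbe1-e (ENSDARG00000087390). Of the 11 rows, 10 reached 10 counts per 1000000 reads (CPM) in the summed profile of at least 1 line.

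The 246 cells were sorted by fluorescence from 6 reporter lines, and their RNA was amplified by Smart-seq2, a full-length method without molecular identifiers, in modified form. Runx123_GFP gave 39 cells, cd41_GFPlow 43, mpx_EGFP 47, rag2_GFP 48, lck_GFP 38 and lck_GFP_rag1 31. The labels give no strain, age, number of animals or full transgene name, and they do not state what rag1 stands for in the last name. Each line is therefore 1 sample. Lines were compared by size with no p-value, and intervals reflect counting alone, leaving out variation from fish to fish. Plates carried a single line each, apart from plate 2 with its rag2_GFP and lck_GFP cells, so an effect of plate and one of the reporter cannot be told apart for Runx123_GFP.

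Haemoglobin joins alpha and beta globin chains, each holding a haem group, and carries oxygen in red blood cells. Haem is made in a chain of enzyme steps that begins and ends in the mitochondrion: 5-aminolevulinate synthase (alas2 in red cell precursors, alas1 in other cells), then alad, hmbs, uros, urod, cpox, ppox and, for the insertion of iron, ferrochelatase (fech). Haem oxygenase later opens the ring to biliverdin, which biliverdin reductases (blvra, blvrb) reduce, and in mammals BLVRB also acts as a flavin reductase.

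Single cells held 47630 to 2969770 reads, and the line sums ranged from 23028484 to 47836984 reads. As a check of the labels, itga2b, the gene also called cd41, was at 1595 CPM in Runx123_GFP but had 15 reads (0.314 CPM) in cd41_GFPlow, although that reporter is named for it. The gene runx1 was at 1.31 CPM in Runx123_GFP, in 2 of 39 cells at 10 CPM or more, 4.03 CPM in cd41_GFPlow and 9.09 CPM in rag2_GFP, and the labels do not say what drives the Runx123_GFP reporter. Of 8 red cell membrane marker rows, 7 had reads in Runx123_GFP, with a summed level of 6124 CPM, and 7 had reads in cd41_GFPlow, with 634 CPM. In the other 4 lines that summed level was 0.0234 to 36.09 CPM. Thrombocyte markers were also highest in Runx123_GFP, with 8 of 9 rows present and 5669 CPM. In cd41_GFPlow 6 of 9 rows had reads, with 242 CPM, but only 2 rows reached 10 CPM, and mpl and gp9 had 0 reads. Elsewhere the thrombocyte sum was at most 0.726 CPM. All 6 T cell marker rows had 0 reads in Runx123_GFP, while kidney tubule markers had 397 CPM there and 27.8 to 161 CPM in the other lines, 3 of the 6 rows (cdh17, pax2 and slc22a2) being at 0 in Runx123_GFP. Stem and progenitor markers, which include tal1, summed to 1598 CPM for Runx123_GFP, against 381 CPM for cd41_GFPlow and no more than 217 CPM elsewhere. Monocyte and macrophage markers were at 749 CPM in Runx123_GFP, from 3 of 9 rows, 2690 CPM in cd41_GFPlow and 3.85 to 6368 CPM elsewhere. Neutrophil markers summed to 155 CPM in Runx123_GFP, 8840 CPM in cd41_GFPlow, 69017 CPM in mpx_EGFP and 436 to 1310 CPM in the lymphoid lines. A row of the neutrophil gene epx was at 10 CPM or more in 9 of 43 cd41_GFPlow cells. The part of these other cell types in the values below was not tested.

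The member globins and alas2 were high in Runx123_GFP, in a minority of its cells. They were nearly without reads in the lymphoid reporters apart from hbe1-d in 1 rag2_GFP cell. Each of urod, fech and blvrb, however, reached at least 12.7 CPM in 1 or more lymphoid lines. A gene was counted as higher or lower when the log2 ratio of CPM, with a pseudocount of 1 CPM, reached 2 in size, which is 4-fold. Of the 10 rows measured, 9 were higher in Runx123_GFP than in the average of the 5 remaining lines and 0 were lower. Over all 12660 genes measured, 11.3% were higher and 25.3% lower by the same rule. The median log2 ratio was 4.28 for the members and -0.22 for all genes measured. A row that reaches 10 CPM in 1 line alone has to differ between lines, so these counts describe the rows and carry no further weight. The measured row that was not higher was hbe1-d, at 0.530 CPM in Runx123_GFP against 13.6 CPM in rag2_GFP, where all 430 reads came from 1 cell.

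**Figure D1:**
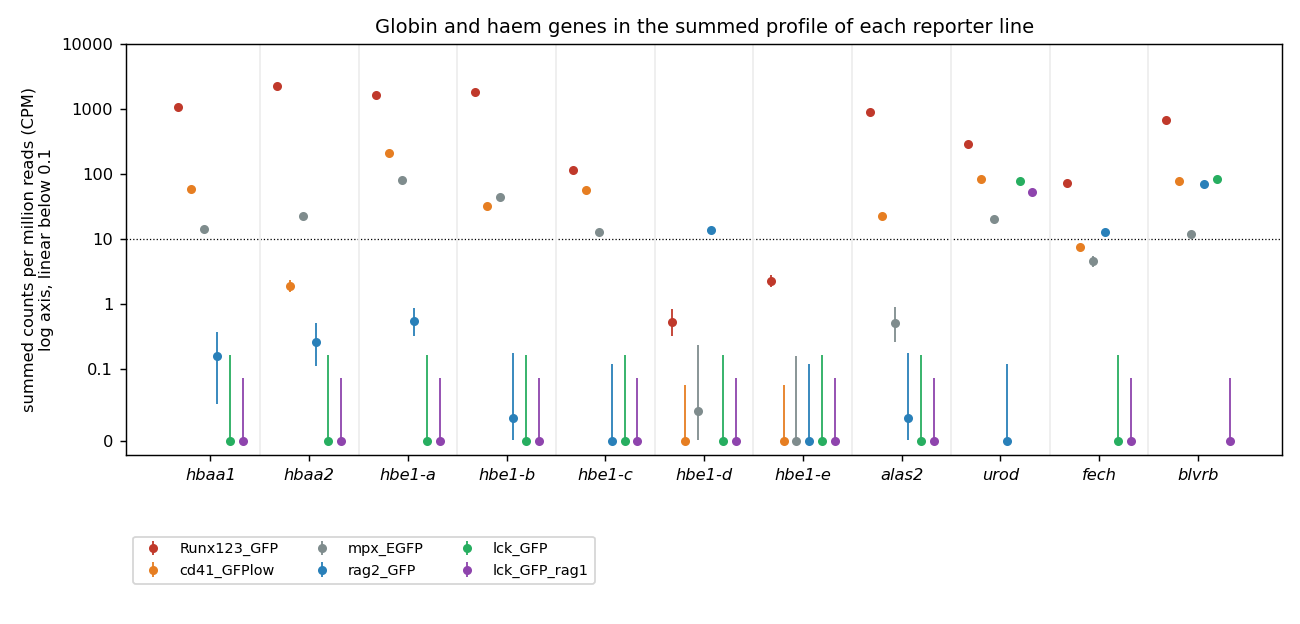
Summed CPM of the 11 member rows in the 6 lines, on an axis that is logarithmic above 0.1 CPM and linear below it; bars are exact Poisson 95% intervals and the dotted line marks 10 CPM. Runx123_GFP (red) has the highest level of every row except hbe1-d, while hbaa1, hbe1-a, hbe1-c, urod and blvrb also lie above 50 CPM in at least 1 of the other lines.

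The alpha globins came first. Over the 39 Runx123_GFP cells hbaa1 had a lowest and median value of 0 and a highest of 10316 CPM, and its summed level was 1075 CPM (95% exact Poisson interval 1064 to 1085). In cd41_GFPlow the highest cell was at 1717 CPM and the sum at 59.2 CPM (57.0 to 61.4), and in mpx_EGFP the highest cell was at 552 CPM and the sum at 14.1 CPM. The ranges of single cells overlapped, since most cells of every line were at 0, and the order of the sums was Runx123_GFP, cd41_GFPlow, mpx_EGFP and rag2_GFP (0.158 CPM, 5 reads of 1 cell). In lck_GFP and lck_GFP_rag1 hbaa1 had 0 reads, and 3 reads would be 0.130 and 0.0701 CPM, within the interval of rag2_GFP. The cells at 10 CPM or more were 11 of 39 in Runx123_GFP (28.2%), 2 of 43 in cd41_GFPlow, 2 of 47 in mpx_EGFP and 1 of 48 in rag2_GFP.

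For hbaa2 the difference between lines was larger. Its sum was 2280.1 CPM (2264 to 2296) in Runx123_GFP, with a highest cell of 31298 CPM, 1.90 CPM in cd41_GFPlow, where all 91 reads came from 1 cell, and 22.7 CPM in mpx_EGFP. Unlike hbaa1, this row was higher in mpx_EGFP than in cd41_GFPlow, and 92.5% of its mpx_EGFP reads came from 1 cell. It was at 10 CPM or more in 10 of 39 Runx123_GFP cells (25.6%) and in 1 of 43, 2 of 47 and 2 of 48 cells of cd41_GFPlow, mpx_EGFP and rag2_GFP, and both lck lines had 0 reads. The log2 ratio of Runx123_GFP over the average of the 5 remaining lines was 8.58 for hbaa2 and 6.10 for hbaa1.

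The beta-type rows fell into an abundant trio and a rare pair. In Runx123_GFP the sums were 1616 CPM for hbe1-a, 1811 CPM for hbe1-b and 115 CPM for hbe1-c, against 211, 31.9 and 56.7 CPM in cd41_GFPlow and 80.6, 43.3 and 12.8 CPM in mpx_EGFP. The lymphoid lines had at most 0.536 CPM of any of the trio, in rag2_GFP, and 0 reads in lck_GFP and lck_GFP_rag1. The rare pair rested on few cells. Row hbe1-e had 81 reads in 4 Runx123_GFP cells (2.26 CPM) and none elsewhere, so it was not among the measured rows. Row hbe1-d had 19 reads spread over 7 Runx123_GFP cells, none of them at 10 CPM, and these were the same 7 cells that held hbe1-c together with alas2.

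Values of single globin rows are uncertain because near-identical copies can share reads. In the RefSeq annotation (GRCz12tu, not the build of the counts) only the nearest neighbours of hbaa1 were looked up. Alpha and beta globin genes stand mixed there, in the order hbaa2, hbba2, ba1l, hbaa1, hbba1, si:ch211-5k11.8, hbbe1.1, hbae1.1 and hbbe1.2. Globin genes further away or at another place in the genome were not looked up. There hbaa2 and hbba2 overlap, and the labels do not say whether counting used strand. The names used for the counts do not say which beta globin gene each hbe1 row is, or whether it is among these neighbours.

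Of the members alas2, urod and fech, alas2 was detected in the fewest Runx123_GFP cells. This first enzyme of the pathway in red cell precursors was at 893 CPM (884 to 903) in Runx123_GFP, with a highest cell of 8581 CPM, against 22.5 CPM (21.2 to 23.9) in cd41_GFPlow, with a highest cell of 444 CPM. It had 12 reads in mpx_EGFP (0.502 CPM), 1 read in rag2_GFP and 0 reads in both lck lines. It reached 10 CPM in 8 of 39 Runx123_GFP cells (20.5%; exact Clopper-Pearson 95% interval 9.30 to 36.5%, and 19.4% after thinning each cell to 200000 reads) and in 2 of 43 cd41_GFPlow cells (4.65%; 0.568 to 15.8%, 4.65% after thinning). The log2 ratio was 7.32 over the average of the 5 remaining lines.

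Later steps were found more widely. The decarboxylase gene urod, of the fifth step, was at 293 CPM (287 to 299) in Runx123_GFP, 83.5 CPM in cd41_GFPlow, 76.8 CPM in lck_GFP, 52.7 CPM in lck_GFP_rag1 and 20.1 CPM in mpx_EGFP, and had 0 reads in rag2_GFP. It was present in 14 of 39 Runx123_GFP cells (35.9%) and 7 of 43 cd41_GFPlow cells (16.3%), but in only 2 cells of each lck line, and 1 lck_GFP_rag1 cell gave 93.4% of the reads there. The highest single values, 1716 CPM in Runx123_GFP and 1481 CPM in lck_GFP, were close. No neighbours in the order of urod levels had overlapping counting intervals. The ferrochelatase gene fech reached 71.1 CPM (68.4 to 73.9) over the Runx123_GFP cells, 10 of 39 of which had it, against 12.7 CPM in rag2_GFP, from 1 cell at 1500 CPM, 7.40 CPM in cd41_GFPlow, in 6 of 43 cells, and 4.52 CPM in mpx_EGFP, from 1 cell. That single rag2_GFP cell was above the highest Runx123_GFP cell, at 496 CPM.

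The reductase gene blvrb was the most widely detected member. It was at 684 CPM (675 to 692) in Runx123_GFP, where the median cell had 237 CPM and the highest 3993 CPM. The sums were 84.3 CPM in lck_GFP, 77.8 CPM in cd41_GFPlow, 68.9 CPM in rag2_GFP and 11.9 CPM in mpx_EGFP, with 0 reads in lck_GFP_rag1. Runx123_GFP was the only line of the 6 with a median above 0 for any member, and blvrb was the only member with one. At 10 CPM or more were 22 of 39 Runx123_GFP cells (56.4%; 39.6 to 72.2%, 58.3% after thinning), 9 of 43 cd41_GFPlow cells (20.9%; 10.04 to 36.04%, 18.6% after thinning) and 3 cells each of rag2_GFP and lck_GFP. In rag2_GFP and lck_GFP 1 cell gave 68.3% and 61.5% of the reads.

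**Figure D2:**
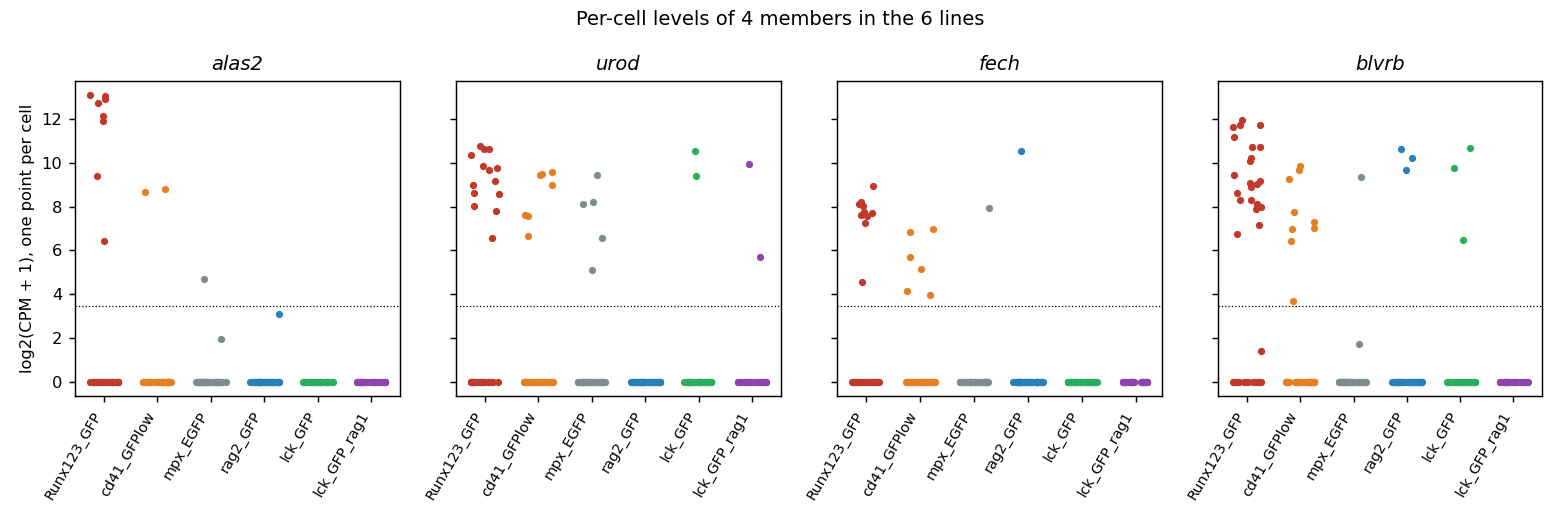
Per-cell log2(CPM + 1) of alas2, urod, fech and blvrb, with 1 point per cell, the 6 lines side by side and a dotted line at 10 CPM. High alas2 values are found in Runx123_GFP, with 2 cd41_GFPlow cells at 400 and 444 CPM, whereas urod and blvrb have scattered high cells in other lines.

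Runx123_GFP was then set against cd41_GFPlow alone. Of 9 rows measured in this pair, 7 were at least 4-fold higher in Runx123_GFP and 0 lower, against 14.8% higher and 14.4% lower of all 9813 genes measured. The median log2 ratio was 3.12 for the members and 0.15 for all genes. The alas2 level was 39.6-fold higher (exact interval 37.3 to 42.2), that of hbaa1 18.2-fold (17.5 to 18.9) and that of blvrb 8.79-fold (8.50 to 9.10). The pair that missed the size rule was urod, 3.51-fold higher (3.38 to 3.64), and hbe1-c, 2.03-fold higher (1.94 to 2.13). Both passed it, with log2 ratios of 2.07 and 2.32, when the top cell of each gene was left out in each line. The cd41_GFPlow levels rested on few cells, since 93.6% of its hbe1-a reads and 74.3% of its hbaa1 reads came from 1 cell.

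Within Runx123_GFP the members did not share the same cells evenly. A globin row, meaning here hbaa1, hbaa2 or an hbe1 row, reached 10 CPM in 12 of 39 cells. For blvrb this number was 22, for urod 14, for fech 10 and for alas2 8. No member reached 10 CPM in 16 cells, and 8 or more did in 9 cells. All 8 alas2 cells had hbaa1, hbaa2, hbe1-a, hbe1-b and blvrb, and 7 of them also had hbe1-c. Conversely, 3 of the 11 hbaa1 cells had no alas2.

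Cells 15, 16, 27, 28, 37, 38 and 39 carried the bulk of the signal. Their hbaa2 values were 13564, 8295, 31298, 3541, 20294, 17230 and 17076 CPM, and their alas2 values were 6735, 3854, 7733, 663, 8581, 8408 and 4415 CPM, in that order of cells. Globin rows took 1.22 to 8.89% of all reads in these cells. All 7 also had urod, at 224 to 1716 CPM, while fech was at 0 in cells 27 and 28. Cells 29 and 33 had lower globin values, with hbaa2 at 187 and 724 CPM, no alas2 read, urod at 926 and 391.7 CPM and fech at 149 and 190 CPM. Cell 19 had hbaa1 at 272 CPM with 0 hbaa2 reads and no alas2 read, beside urod at 567 CPM. Cells 22 and 34 had urod, fech and blvrb and not 1 read of any globin row or alas2. Detection of urod, fech and blvrb together occurred in 5 cells with alas2 and in 5 cells without it.

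**Figure D3:**
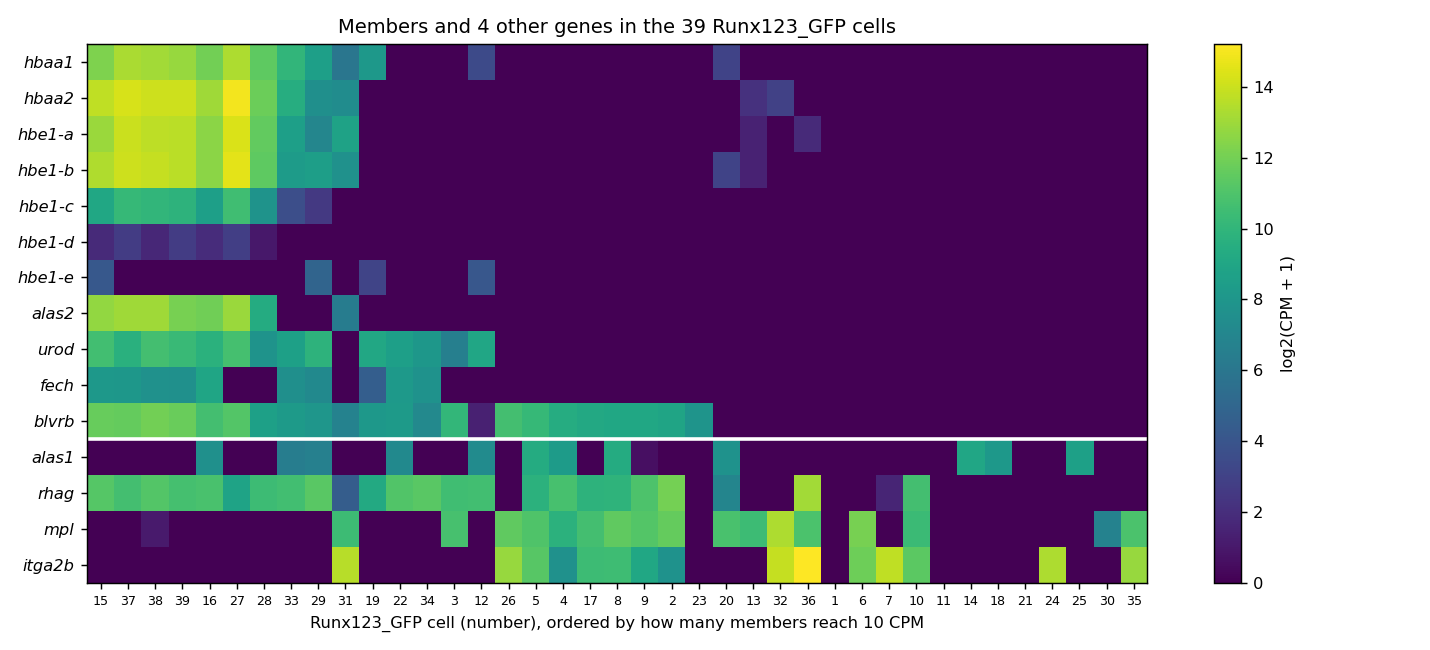
Log2(CPM + 1) of the 11 member rows (above the white line) and of alas1, rhag, mpl and itga2b (below it) in the 39 Runx123_GFP cells, ordered by how many members reach 10 CPM. Globin rows and alas2 are high together in 7 cells near the left, blvrb extends to 22 cells, and 8 of the cells with blvrb also have itga2b.

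The blvrb cells also included cells with thrombocyte genes. Of the 22 blvrb cells, 11 had no globin row at 10 CPM, and 8 of these 11 had itga2b or mpl, the gene of the thrombopoietin receptor. In all, 27 of the 39 Runx123_GFP cells had no globin row at 10 CPM. Of the 39 cells 19 had itga2b or mpl, and only 1 of these had a globin row. Of the 19, 9 had blvrb, beside 22 of all 39 cells, so blvrb was not more frequent in them. Of the same 19, 1 had urod, 0 had fech and 1 had alas2. The cell with itga2b, globins and alas2 was cell 31, the shallowest of the data at 47630 reads, in which alas2 rested on 4 reads and all globin rows together on 42 reads. It was below the thinning depth, so that after thinning no cell with itga2b had alas2.

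The general synthase gene alas1 did not follow alas2. It was at 136 CPM in Runx123_GFP, 199 CPM in cd41_GFPlow, 206 CPM in mpx_EGFP, 126 CPM in rag2_GFP, 445 CPM in lck_GFP_rag1 and 0.868 CPM in lck_GFP. Of 12 Runx123_GFP cells with alas1 and 8 with alas2, 1 had both. The log2 ratio of alas1 over the average of the 5 remaining lines was -0.52, short of the size rule.

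The remaining enzymes of haem synthesis were higher in Runx123_GFP in most cases. Of 6 measured rows, alas1 included, 5 were at least 4-fold higher than in the average of the 5 remaining lines and 0 lower. Over all genes, 11.3% were higher and 25.3% lower. The median log2 ratio of the 6 rows was 2.77. The deaminase symbol hmbs stands at 2 rows, at 563 CPM against a mean of 24.2 CPM (ENSDARG00000055991) and at 292 CPM against 31.8 CPM (ENSDARG00000008840). The oxidase gene cpox was at 221 CPM against 15.5 CPM and uros at 96.1 CPM against 17.7 CPM. The second enzyme gene, alad, was at 158 CPM against 38.6 CPM, just inside the rule with a log2 ratio of 2.00. The count was 3 in cells of at least 1000 genes, 3 with a pseudocount of 10 CPM and 3 under an 8-fold rule. Against cd41_GFPlow, 2 of the 6 were higher, cpox and the hmbs row of 563 CPM. In that pair 14.8% of all genes measured were higher and 14.4% lower.

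**Figure D4:**
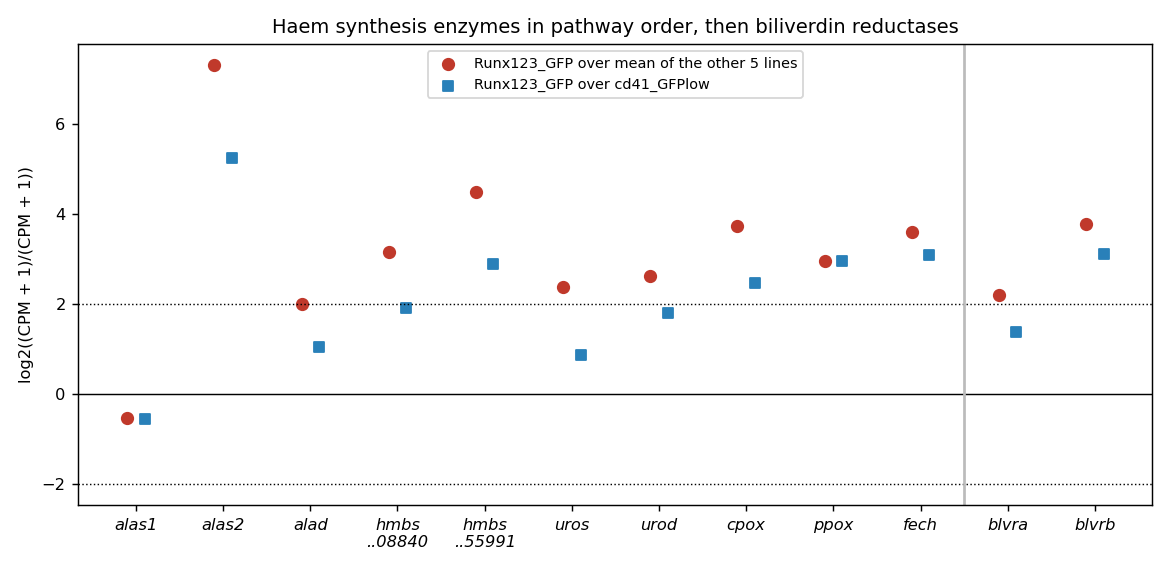
Log2 ratio of Runx123_GFP over the average of the 5 remaining lines (red circles) and over cd41_GFPlow (blue squares) for the haem synthesis genes in the order of the pathway and then the biliverdin reductases; dotted lines mark 4-fold. The largest ratios are those of alas2, at 7.32 and 5.25, and alas1 lies at -0.52 and -0.55; ppox was below 10 CPM in every line.

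Genes of iron delivery and of iron-sulphur clusters were mixed. Over all genes, 11.3% were higher in Runx123_GFP than in the average of the 5 remaining lines and 25.3% were lower. Of 14 measured rows of iron uptake, storage and sensing, 4 were higher and 1 was lower, with a median of 0.60. Higher were tfr1a, a transferrin receptor gene, at 173 CPM against 8.98 CPM, the iron importer gene slc11a2 at 293 CPM against 33.3 CPM, tfr2 at 12.9 CPM against 0.259 CPM, and a ferritin row, fth1, at 19.7 CPM against 2.71 CPM. The lower gene was exoc6, of vesicle tethering, at 9.99 CPM against 56.0 CPM. The ferritin gene fth1a, at 1613 CPM against 476 CPM, lay below 4-fold. The other tfr1 gene, tfr1b, went the opposite way to tfr1a, short of the size rule. It was at 149 CPM against 281 CPM, with 421 CPM in cd41_GFPlow, and is named here after its value was seen.

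Of 23 measured rows of mitochondrial carriers, iron-sulphur cluster assembly and haem transport, 7 were higher and 1 lower, with a median of 1.00. Beside these stood 11.3% higher and 25.3% lower of all genes. The mitochondrial transporter gene abcb10 was at 228 CPM against 20.8 CPM, and slc25a37, the mitochondrial iron importer gene mitoferrin, was at 131 CPM against 26.4 CPM. The glutaredoxin gene glrx5, needed for iron-sulphur clusters in zebrafish red cells, was at 182 CPM against 24.01 CPM. The co-chaperone gene hscb, at 17.02 CPM against 0.305 CPM, came from 1 cell, and 1 of the 2 clpx rows was at 20.5 CPM against 2.77 CPM. The other clpx row went the opposite way, short of the size rule, at 11.1 CPM against 25.5 CPM. The row counted as lower was 1 of 2 named abcb6, at 0.502 CPM against 5.45 CPM, which is named here after its value was seen. That mean came from lck_GFP alone, at 27.2 CPM, and the abcb6 row was at 0 CPM in cd41_GFPlow, mpx_EGFP, rag2_GFP and lck_GFP_rag1.

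Among genes of haem breakdown, export and sensing, of 12 measured rows 1 was higher and 3 were lower, with a median of 0.16. The higher one was blvra, the other biliverdin reductase, at 40.5 CPM against 7.95 CPM and in 11 of 39 Runx123_GFP cells. Lower were the haemopexin gene hpxb and a bach1 row, both with 0 reads in Runx123_GFP, and nfe2l2, an oxidative stress regulator, at 44.1 CPM against 182 CPM. Over these 4 lists together, 17 of 55 measured rows were higher and 5 lower, their median log2 ratio being 0.79, beside 11.3% higher and 25.3% lower of all genes and a median of -0.22. Set against cd41_GFPlow alone, 8 of 50 measured rows were higher and 4 lower, their median being 0.91, beside 14.8% higher and 14.4% lower of all genes and a median of 0.15, so that the share of higher rows was then near that of all genes.

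Regulators of red cell development and further globins were also high in Runx123_GFP. Of 14 measured regulator rows 8 were higher than in the average of the 5 remaining lines and 0 lower, with a median of 4.44. Beside these stood 11.3% higher and 25.3% lower of all genes. Examples of the higher rows were tal1 at 764 CPM against 9.66 CPM, gata1a at 415 CPM against 14.9 CPM, gfi1b at 102 CPM against 0.807 CPM and zfpm1 at 653 CPM against 14.1 CPM. The factor genes klf17 and nfe2 were at 84.3 CPM against 2.05 CPM and 374 CPM against 12.7 CPM. Among rows short of the rule, klf3 was at 47.9 CPM against 65.7 CPM. Another, lmo2, was at 351 CPM in Runx123_GFP and 766 CPM in rag2_GFP. Both klf3 and lmo2 are named here after their values were seen. Several of these regulator genes also act in thrombocytes, whose markers were high in Runx123_GFP. Both other globin rows that were measured, hbae4 at 52.9 CPM against 0.518 CPM and hbae1.3 at 23.4 CPM with 0 reads in the other 5 lines, were higher. Of 10 antioxidant rows 1 was higher, gpx4a at 48.7 CPM against 11.4 CPM.

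Likeness to the members was measured over the 39 Runx123_GFP cells. The measure was Pearson's r of log2(CPM + 1) with the mean of the 11 rows, given as a description over cells that share plate and library preparation, among 2793 genes. Most of the 11 rows are globin rows, so their mean is weighted to globins. The highest r, 0.97, was that of si:ch211-5k11.8, which RefSeq also lists as hbaa1.2, a name of the alpha globin series. The part of reads shared between near-identical copies in this r was not tested. Next were cahz, a carbonic anhydrase gene, at 0.95, si:ch211-103n10.5 at 0.95, si:dkey-16p21.8 at 0.94 and the membrane skeleton gene epb41b at 0.93. The other 5 were tmod4 (0.91), an nmt1 row (0.91), klf1 (0.90), the hmbs row of 563 CPM (0.89) and a row of slc4a1, the anion exchanger gene (0.89). Over all 246 cells 8 of these 10 were also among the highest 10, with hbae4 and sptb in place of the rest. Those cells include the same 39, and the genes again had to reach 50 CPM in Runx123_GFP, so this is no independent repeat. Most like alas2 was si:ch211-103n10.5, at 0.98, followed by cahz at 0.95.

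Among the members, r over the same cells was 0.95 for hbaa1 with hbaa2, 0.93 for alas2 with hbaa2 and 0.80 for urod with fech. It was lower for blvrb, at 0.59 with hbaa1 and 0.61 with urod, but this was not particular to blvrb. For fech r was 0.63 with hbaa2 and 0.53 with alas2. For the rare row hbe1-e it was 0.32 with hbaa1 and 0.06 with alas2. With itga2b, r was -0.43 for hbaa1, -0.57 for urod and -0.17 for blvrb.

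The make-up of the globin reads differed between cells of different lines. Globin reads are here those of hbaa1, hbaa2 and the hbe1 rows, without other globin genes. At least 100 of them were found in 10 Runx123_GFP cells, 2 cd41_GFPlow cells, 2 mpx_EGFP cells and 1 rag2_GFP cell, the last with hbe1-d alone. The alpha rows hbaa1 and hbaa2 made up 46.8 to 51.9% of globin reads in 8 of the 10 Runx123_GFP cells, 71.0% in cell 33 and 97.3% in cell 19. They made up 14.8% (14.3 to 15.4%) and 29.6% (27.7 to 31.4%) in the cd41_GFPlow cells, and 16.3% (14.2 to 18.6%) and 23.4% (21.8 to 24.9%) in the mpx_EGFP cells. Each Runx123_GFP cell lay above each cell of the other lines. That separation did not hold when si:ch211-5k11.8 was counted as another alpha row, an alternative chosen after the values were seen. Then the alpha share was 50.3 to 98.3% in the Runx123_GFP cells, 36.9 and 58.0% in the cd41_GFPlow cells and 27.6 and 29.3% in the mpx_EGFP cells.

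Which copies were read also differed. Of the reads of hbaa1 and hbaa2, hbaa2 took 56.5 to 75.2% in the 7 Runx123_GFP cells with both hbe1-c and alas2, 32.7 and 41.3% in cells 29 and 33 and 0% in cell 19. It took 4.15% and 0% in the cd41_GFPlow cells and 20.97% and 72.7% in the mpx_EGFP cells. In the cd41_GFPlow cells si:ch211-5k11.8 took 70.3% and 69.6% of the reads of the 3 alpha rows. Its share was 48.8% and 26.5% in the mpx_EGFP cells and 12.9 to 37.6% in the Runx123_GFP cells. Row hbe1-c took 14.3% and 53.1% of the hbe1 reads in the cd41_GFPlow cells, 13.8% and 7.49% in the mpx_EGFP cells and at most 3.72% in the Runx123_GFP cells. Reads amplified from 1 cell are not independent molecules, each cell comes from 1 plate, and the part of copy sharing, plate or animal in these values was not tested.

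**Figure D5:**
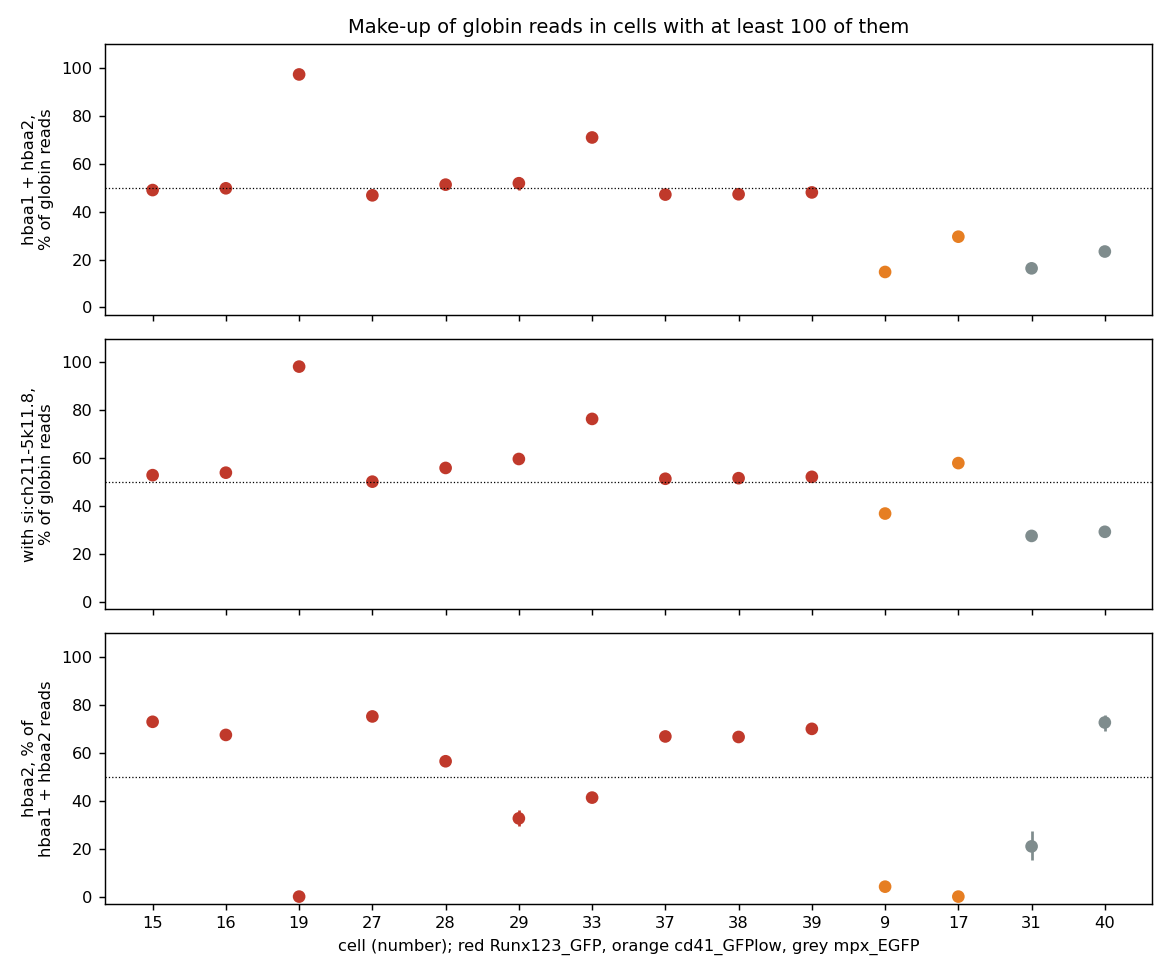
Share of hbaa1 and hbaa2 in the reads of hbaa1, hbaa2 and the hbe1 rows, here called globin reads (top). The middle panel gives the same with si:ch211-5k11.8 counted as another alpha row, and the bottom panel hbaa2 as a share of hbaa1 and hbaa2 reads. Shown are the 14 cells of 3 lines with at least 100 globin reads and a read of an alpha row. Bars in the top and bottom panels are exact 95% intervals. The cd41_GFPlow and mpx_EGFP cells lie below 30% at the top, and a cd41_GFPlow cell moves to 58.0% in the middle.

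The globin cells of the other lines had different companions. Both cd41_GFPlow cells, 9 and 17, had alas2 at 444 and 400 CPM, urod at 753 and 698 CPM and blvrb at 813 and 615 CPM. They also had the red cell regulators gata1a, at 938 and 1207 CPM, and klf1, at 641 and 445 CPM, and no itga2b or mpl read. The mpx_EGFP cells, 31 and 40, had 0 reads of gata1a and klf1, with alas2 at 24.6 and 2.92 CPM. The red cell carbonic anhydrase gene cahz was at 0 and 353 CPM in these mpx_EGFP cells and at 216 and 0 CPM in the cd41_GFPlow cells, and myb, a progenitor gene, was at 0 and 307 CPM and at 97.2 and 99.7 CPM. The neutrophil genes lyz and npsn were high in both mpx_EGFP cells, lyz at 26326 and 9693 CPM and npsn at 38848 and 27258 CPM. Below 100 globin reads were another 6 Runx123_GFP cells, 1 cd41_GFPlow cell, 5 mpx_EGFP cells and 3 rag2_GFP cells. In contrast, 0 of 38 lck_GFP and 0 of 31 lck_GFP_rag1 cells had a read of hbaa1, hbaa2 or an hbe1 row. Taking 3 cells as the limit that a count of 0 allows, shares of up to 7.89% and 9.68% are possible. The exact Clopper-Pearson upper limits for the same counts are 9.25% and 11.2%. These limits hold for the member globin rows only, since mb, another globin gene, was at 9.05 CPM in lck_GFP_rag1.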

How the data were processed

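Smart-seq2 libraries of 246 single cells from 6 reporter lines were used. The authors deposited 1 table of raw read counts per gene and cell (21876 genes). Per the submitters' processing notes, STAR, Picard and featureCounts were named with the build GRCz10, without versions. Whether counting used strand is not given in the sources used here. Genes without a name numbered 2527 and held 5.23% of the reads. They stayed in the totals.

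For each line the counts of its cells were added up and scaled to 1000000 reads, giving CPM. The labels name no animals, so a line is 1 sample, no test was run, and differences were named by size: a log2 ratio with a pseudocount of 1 CPM of at least 2 in size, among genes with at least 10 CPM in at least 1 line. Sums have exact Poisson 95% intervals, folds exact intervals conditional on both sums, and shares of cells or reads exact Clopper-Pearson intervals. All cover counting error only, since PCR reads carry no molecular identifiers. No cell was left out, and doublets were not called. For shares at equal depth each cell was thinned to 200000 reads.

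Symbols came from the gene name table. Of 120 context entries 98 matched, 21 of them by the symbol without its last letter or number. RefSeq (GRCz12tu) was used for other symbols and neighbours only. The members and lists were chosen with earlier results of these data known. All member rows are named, then of each context list at most 6 genes by size of log2 ratio, and the 10 genes with the highest r to the members among those with at least 50 CPM and a read in at least 8 Runx123_GFP cells, with the 5 highest for alas2. Some genes that this rule names are not reported here. The rule of 100 globin reads for the make-up of cells was chosen after values were seen. The size rule and the Poisson intervals were tried on simulated line sums. These were drawn from the Poisson model that the intervals assume, without variation between cells. Likeness, co-occurrence and globin make-up were not tried on simulated data. Alternatives covered scaling by size factors, the mean of per-cell CPM, thinning, cells with at least 1000 genes, left-out cells, pseudocounts, filters and an 8-fold rule. Python 3.11.15, numpy 2.4.6, pandas 2.3.3, scipy 1.17.1 and matplotlib 3.10.9 were used.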

Additional observations from a re-analysis of the deposited data

How the results depend on the processing

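The count of 4-fold higher members, Runx123_GFP set against the average of the 5 remaining lines, was 9 under every alternative tried except an 8-fold rule, where it was 7. Against cd41_GFPlow it was 7, and 6 to 9 over the alternatives. The share of Runx123_GFP cells with alas2 was 20.5%, and 19.4 to 21.1% over the alternatives. Counts of other haem and iron genes moved by more than 1.5 times under some settings. An 8-fold rule can only lower a 4-fold count, and a stricter filter leaves fewer rows to count. The cause of the other shifts was not tested. The 17 higher of 55 rows became 7 of 55 with a pseudocount of 10 CPM, 11 of 36 with a filter of 50 CPM and 8 of 55 under the 8-fold rule. The 5 lower of 55 rows became 3 of 52 after thinning and 0 of 55 with the pseudocount of 10 CPM. They became 2 of 36 with the filter of 50 CPM and 1 of 55 under the 8-fold rule. The median log2 ratio of all genes, -0.22, became -0.47 with size factors and 0.18 with the top cell of a gene left out per line, against which single ratios are to be read. Over the alternatives the log2 ratio against the average of the 5 remaining lines ranged between 7.26 and 10.53 for hbaa2, 5.46 and 7.52 for hbaa1, 4.56 and 7.17 for hbe1-a, 6.18 and 9.12 for hbe1-b, 2.39 and 4.09 for hbe1-c, 5.95 and 7.88 for alas2, 2.42 and 3.71 for urod, 2.44 and 4.71 for fech and 3.57 and 4.67 for blvrb, with the highest value of each without top cells. Row hbe1-d, at -1.28, became 0.56 without its top cells. No paired analysis was possible because each line is 1 sample and no result comes from a test. Depth limits the rare rows: 3 reads correspond to 0.0627 to 0.130 CPM of a line.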

Other observations

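The genes most like blvrb over the 39 Runx123_GFP cells, a comparison added after the values were seen, differed from those most like alas2. They were znfl2a (r = 0.73), hdr (0.68), mthfd2 (0.68), a mitochondrial folate enzyme gene, tspo (0.68), which encodes a mitochondrial outer membrane protein that binds porphyrins, and rhag (0.67), of the red cell membrane. These genes were found at 10 CPM or more in 15 to 24 of the 39 cells, beside 22 for blvrb and 8 for alas2. By the same threshold rhag was not confined to cells without thrombocyte genes. It was found in 9 of the 15 itga2b cells and in 11 of the 17 mpl cells. The summed level of tspo was 658 CPM in Runx123_GFP and 40.5 CPM in the average of the 5 remaining lines, and that of hdr 746 CPM and 12.6 CPM.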
